A study of Mus musculus with 16 samples.

Results

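Genes for the rearrangement of T cell receptor genes and for the first steps of T cell receptor signalling were followed in the spleen and thymus of EMP3 mutant mice. The rule named 10 genes (Rag1, Rag2, Dntt, Ptcra, Lck, Zap70, Lat, Satb1, Bcl11b and Tcf7) and took every probe that carries 1 of these symbols in the platform annotation. Of the 10 genes, 4 had a probe: Dntt with 1, Lat with 2, Bcl11b with 2 and Satb1 with 3, which made 4 of the 9030 genes named on the array and 8 of its 20794 probes. Rag1, Rag2, Ptcra, Lck, Zap70 and Tcf7 had no probe under these symbols in the annotation and are not analysed here. The rule itself uses gene symbols and no measured value, but the genes were picked with earlier results of these data known. Each of the 8 probes had a value on all 16 arrays.

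The mutant mice were 4 males aged 17 weeks, labelled as EMP3 mutant, and the controls were male mice of the same age labelled as EMP3 wild type, whose RNA was pooled for each tissue. Total RNA of each mutant spleen and thymus was hybridised against the pool on a pair of 2-colour cDNA arrays, with the dyes Cy3 and Cy5 exchanged between the arrays of the pair. The channel labels list 4 mice in the pool and the labelling protocol speaks of 6, and the nature of the EMP3 mutation and the strain are not given in the labels. The series title names thymus and brain, while the sample labels name spleen and thymus, which were followed. The pool was a lone control sample in each tissue. A test of the ratio against 0 therefore leaves out the spread among control mice.

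T cells assemble their receptor genes in the thymus by cutting and rejoining gene segments, a reaction started by the Rag proteins. Dntt (terminal deoxynucleotidyltransferase) adds nucleotides at the joins without a template and so diversifies the receptor; it is a marker of immature lymphocytes and of early thymocytes above all. Lat is the membrane adaptor that the kinases Lck and Zap70 phosphorylate once the receptor is engaged, and it gathers the signalling enzymes beneath the receptor. Bcl11b is a zinc finger transcription factor that commits early progenitors to the T lineage. Satb1 organises chromatin in thymocytes and is required for their normal development.

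The deposited values were log ratios, read here as log2 with the mutant as numerator. No label gives the log base or the numerator. A mutant numerator is likely because the design text speaks of mutants versus a reference pool; with the pool as numerator, every sign below is turned. A second doubt is whether arrays with the mutant in Cy3 had already been turned before deposit, as taken here; values under the other reading are given where they matter. Between 20046 and 20639 probes were measured on an array. The files hold ratios without intensities. Depth is therefore unknown, neither labelled tissue could be checked by the level of its markers, and the number of mice limits the precision. Thymus arrays of different mice with opposite mutant dyes correlated at -0.32 to -0.14 across probes, and those with the same dye at 0.14 to 0.39. The arrays of 1 mouse correlated at -0.44 to -0.25 in the 3 thymus pairs used. In spleen the arrays of 1 mouse correlated at 0.05 to 0.42, and those of different mice at 0.01 to 0.42 with opposite dyes and 0.24 to 0.63 with the same dye. The arrays of thymus mouse 2 mirrored each other (r = -0.922 across probes) and were not used, which left 4 mice in spleen and 3 in thymus. For 5 of the 8 probes, the mean of that mirrored pair was the pair's overall median mean, 0.03. The median SD between mice over all probes was 0.15 in spleen and 0.09 in thymus.

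In spleen, the comparison asked which transcripts stood at another level in the mutants than in the pool. The Lat probe 6288 was higher (1.59-fold), the Bcl11b probe 33 was lower (0.723-fold) and the Satb1 probe 6570 was higher (1.27-fold). The other 5 probes did not pass an adjusted p of 0.05 in limma, among them the second probe of Lat, the second probe of Bcl11b and the only probe of Dntt. Of the 8 probes, 3 were called, 2 higher and 1 lower, or 37.5%. Over all 20127 probes tested in spleen, 25.3% were called, 13.4% higher and 11.9% lower, so a count of 3 in 8 lies near that background. The median log2 ratio was 0.19 over the 8 probes and 0.04 over all probes. Neighbouring probes, within 50 IDs, had medians of 0.12 to 0.24 around Dntt, both Lat probes, Bcl11b 6459, Satb1 6570 and Satb1 6649. Of these neighbours 37% to 51% were called. Around Bcl11b 33 and Satb1 5354 the neighbour medians were -0.12 and 0.03. Without mouse 2 the count over all probes was 2351 and without mouse 4 it was 2366, against 5086 with all 4 mice, and with the variance of the pool added it was 1689. With the Cy3 arrays turned, 1 probe in all was called, and none of the 8. In bulk tissue, fewer cells of a type and less RNA per cell cannot be told apart.

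Lat, the adaptor below the receptor, had the largest spleen ratio of the 8 probes. At probe 6288 the spleen log2 ratios with the mutant in Cy5 were 0.60, 0.65, 0.43 and 0.73 in mice 1 to 4. With the mutant in Cy3 they were 0.88, 0.83, 0.79 and 0.47. All 8 arrays lay above 0, as did all 8 for 8.92% of the 19425 probes measured on every spleen array. The means of the pairs were 0.74, 0.74, 0.61 and 0.60, so the mice differed by little beside the size of the ratio. The mean was 0.67 ± 0.08 (SD, n = 4; adjusted p = 0.00401 in limma), with a 95% interval of 0.52 to 0.83. This exceeded in size the spleen ratio of 95.8% of all probes. Leaving out each mouse in turn gave 0.65 to 0.70 with adjusted p of 0.00585 to 0.0257 in limma. With the Cy3 arrays turned, the value was -0.07. Within 50 probe IDs on either side, the median spleen log2 ratio of the other probes was 0.23 and 51% of them were called; with the running median removed, probe 6288 was at 0.44 and still passed in limma (adjusted p = 0.00959).

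The second Lat probe, 7120, did not share this value. Its spleen log2 ratios were 0.15, -0.04, 0.37 and 0.19 in mice 1 to 4, a mean of 0.17 ± 0.17 (SD, n = 4; adjusted p = 0.188 in limma) with a 95% interval of -0.04 to 0.37. The intervals of the 2 Lat probes did not overlap. Probe 6288 was above probe 7120 in all 4 mice, by 0.24 to 0.78 and by 0.51 ± 0.23 (SD, n = 4) on average, for which exact sign-flipping over mice gave a two-sided p of 0.125, the smallest that 4 mice allow. Which part of the Lat transcript either probe covers was not known here. The spleen result is therefore a result of probe 6288.

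**Figure D1:**
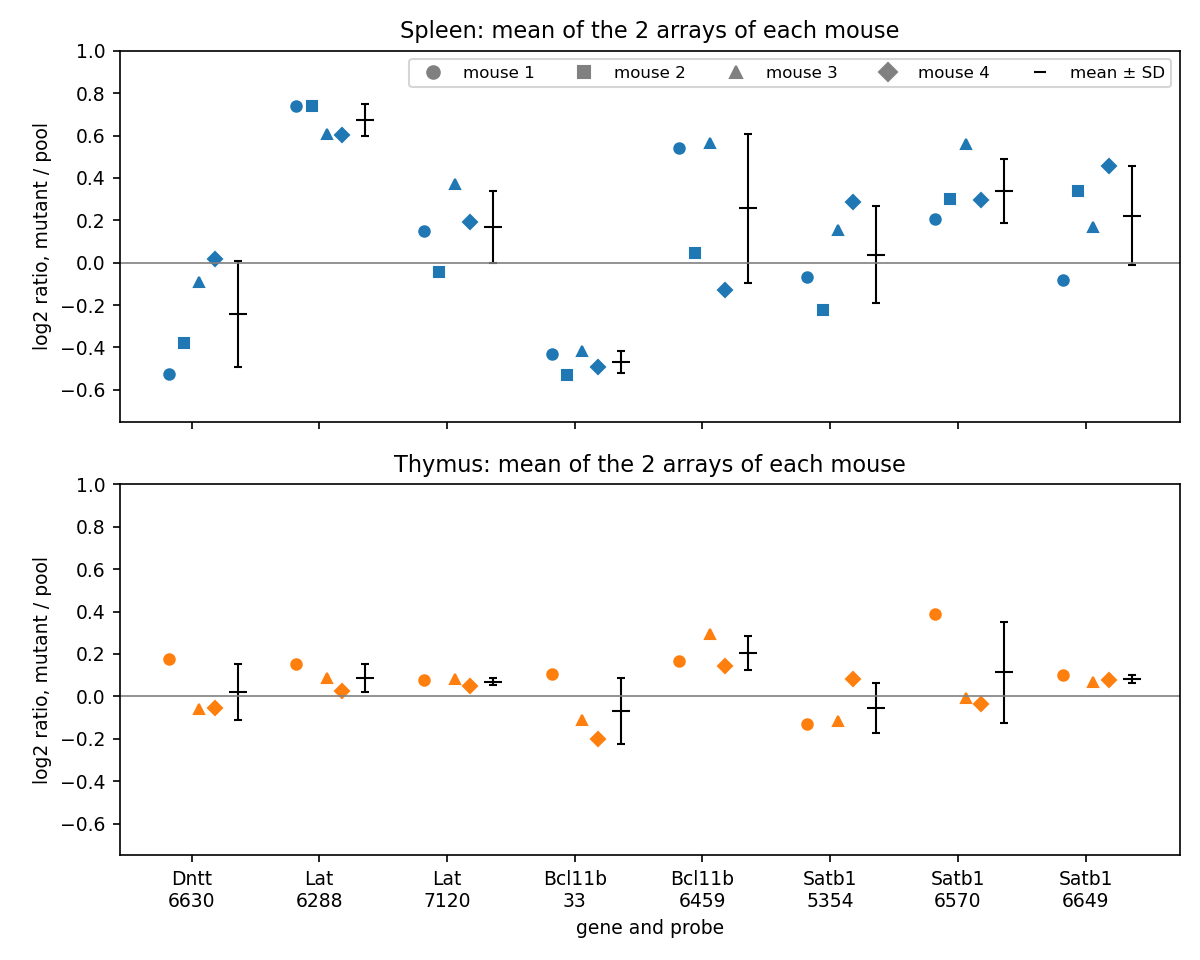
Log2 ratio of mutant over pool for each of the 8 probes (horizontal axis, gene and probe ID) in each mouse, as the mean of its 2 dye-exchanged arrays, in spleen (upper panel, 4 mice) and thymus (lower panel, 3 mice); black marks are the mean ± SD over mice. In spleen the 4 mice lie between 0.60 and 0.74 at Lat 6288 and between -0.53 and -0.42 at Bcl11b 33, while the points of most other probes spread across 0; in thymus the means lie between -0.07 and 0.20.

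Bcl11b, the T lineage commitment factor, had probes that moved apart. At probe 33 the spleen log2 ratios were -0.58, -0.70, -0.69 and -0.44 in mice 1 to 4 with the mutant in Cy5, and -0.29, -0.36, -0.15 and -0.55 with the mutant in Cy3. All 8 arrays lay below 0, as they did for 10.3% of probes. The pair means were -0.43, -0.53, -0.42 and -0.49, the narrowest spread of the 8 probes in spleen. The mean was -0.47 ± 0.05 (SD, n = 4; adjusted p = 0.00505 in limma), with a 95% interval of -0.61 to -0.32. Without each mouse in turn the mean was -0.48 to -0.45 and the probe kept its call in limma (adjusted p of 0.00999 to 0.0310). With the Cy3 arrays turned it was at -0.13 and did not pass (adjusted p = 0.338 in limma).

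At the other Bcl11b probe, 6459, the spleen log2 ratios were 0.54, 0.05, 0.56 and -0.13 in mice 1 to 4. Mice 1 and 3 were high. The arrays of mouse 2 were at 0.18 with the mutant in Cy5 and -0.09 in Cy3. Those of mouse 4 lay further apart, at -0.55 in Cy5 and 0.29 in Cy3. The mean was 0.26 ± 0.35 (SD, n = 4), the widest spread of the 8 probes, with an adjusted p of 0.214 in limma. Its 95% interval, -0.08 to 0.59, lay wholly above that of probe 33. Probe 33 was below probe 6459 in all 4 mice, by 0.36 to 0.98 in size, with a mean difference of -0.72 ± 0.31 (SD, n = 4) with an exact two-sided p of 0.125 from sign-flipping over mice. Within 50 probe IDs on either side, the median spleen log2 ratio of the other probes was -0.12 around probe 33 and 0.24 around probe 6459. With the running median removed, probe 33 was at -0.34 and passed (adjusted p = 0.0134 in limma). Probe 6459 was then at 0.01 and did not pass (adjusted p = 0.957 in limma). The array thus gave no spleen call for Bcl11b that both probes shared.

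Satb1, the chromatin organiser, had 3 probes in spleen with means above 0, of which 1 passed. At probe 6570 the log2 ratios were 0.20, 0.72, 1.38 and 0.50 in mice 1 to 4 with the mutant in Cy5. With the mutant in Cy3 they were 0.22, -0.12, -0.27 and 0.09. The Cy5 arrays averaged 0.70 and the Cy3 arrays -0.02, the widest gap between the dyes at any of the 8 probes. The pair means were 0.21, 0.30, 0.56 and 0.29, with mouse 3 the highest, and their mean was 0.34 ± 0.15 (SD, n = 4; adjusted p = 0.0265 in limma). The call was lost in limma without mouse 2 (0.35, adjusted p = 0.0822), without mouse 3 (0.27, adjusted p = 0.0583) and without mouse 4 (0.35, adjusted p = 0.0829). It was also lost with the variance of the pool added (adjusted p = 0.120 in limma) and with the running median over neighbouring probe IDs removed (0.13, adjusted p = 0.310 in limma).

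The Satb1 probe 6649 lay 79 IDs from probe 6570 and was at -0.08, 0.34, 0.17 and 0.46 in mice 1 to 4. Its mean was 0.22 ± 0.23 (SD, n = 4; adjusted p = 0.155 in limma), and without mouse 1, the only mouse below 0, it was 0.32 and passed (adjusted p = 0.0444 in limma). The Satb1 probe 5354 was at -0.07, -0.22, 0.16 and 0.29 in mice 1 to 4, with mice on both sides of 0. Its mean was 0.04 ± 0.23 (SD, n = 4; adjusted p = 0.799 in limma), the smallest of the 8 in size. The pair means of the 3 Satb1 probes overlapped. Within the mouse, probe 5354 was below probe 6570 in all 4 mice, by 0.01 to 0.52 in size and by -0.30 ± 0.22 (SD, n = 4) on average (exact two-sided p = 0.125 from sign-flipping).

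Dntt, the template-independent polymerase, had a spleen mean below 0 that did not pass. At probe 6630 the spleen log2 ratios with the mutant in Cy5 were -0.17, -0.48, 0.24 and 0.33 in mice 1 to 4. With the mutant in Cy3 they were -0.88, -0.28, -0.42 and -0.30, all below 0. The pair means were -0.52, -0.38, -0.09 and 0.02, lower in mice 1 and 2 than in mice 3 and 4. Their mean was -0.24 ± 0.25 (SD, n = 4; adjusted p = 0.140 in limma), with a 95% interval of -0.50 to 0.01. The probes within 50 IDs on either side had a median spleen log2 ratio of 0.22, and with the running median removed Dntt was at -0.43 and passed (adjusted p = 0.0300 in limma). With the Cy3 arrays turned it was at 0.22.

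**Figure D2:**
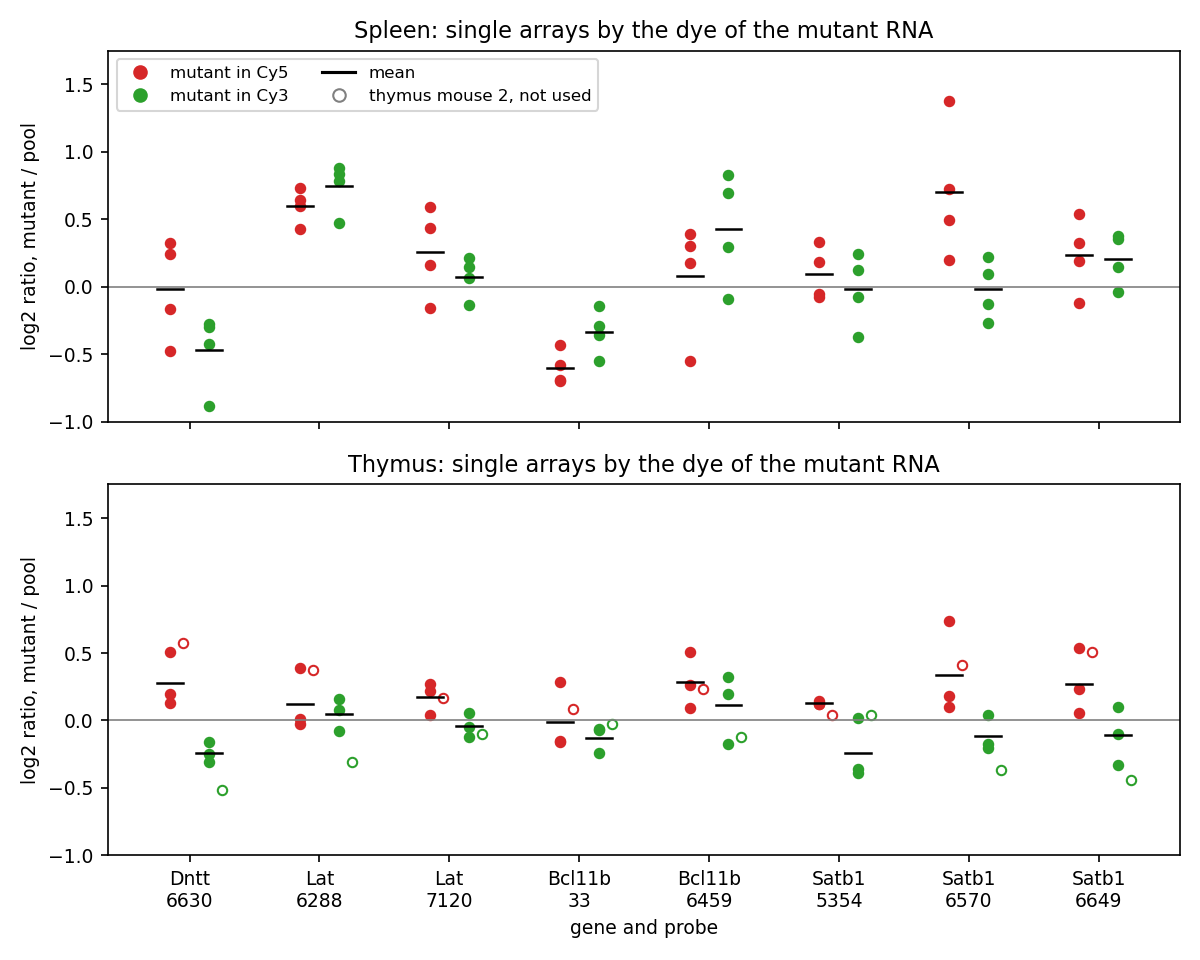
Log2 ratio of mutant over pool on each single array for the 8 probes (horizontal axis), with the mutant RNA in Cy5 (red) or in Cy3 (green), in spleen (upper panel) and thymus (lower panel); black lines are the means over the arrays used, and open circles are the mirrored arrays of thymus mouse 2. At Lat 6288 and Bcl11b 33 the spleen arrays of either dye lie on 1 side of 0, at Satb1 6570 the spleen means are 0.70 in Cy5 and -0.02 in Cy3, and in thymus the Cy5 mean is above the Cy3 mean at all 8 probes.

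In thymus none of the 8 probes passed. Limma called 0% of the 20130 probes tested (725 had an unadjusted p under 0.05), 0 when both tissues were fitted together, and 1 without mouse 1. The number at an unadjusted p under 0.05 was 1709 without mouse 1 and 2164 with the Cy3 arrays turned. Of the 8 probes, 1 had an unadjusted p under 0.05, with adjusted p of 0.866 to 0.950 in limma over the 8. Exact tests cannot go below p = 0.25 with 3 mice. The thymus means ran from -0.07 to 0.20, with a median of 0.08 against 0.00 over all probes. The widest 95% interval of the 8, for Satb1 6570, was -0.12 to 0.35.

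The Bcl11b probe 6459 had the largest thymus ratio of the 8, at 0.17, 0.29 and 0.15 in mice 1, 3 and 4. All 3 mice were above 0, as were 5 of the 6 arrays. Its mean of 0.20 ± 0.08 (SD, n = 3) exceeded in size 97.5% of all thymus probes, but did not pass in limma (unadjusted p = 0.00875, adjusted p = 0.866). The Bcl11b probe 33 was at 0.11, -0.11 and -0.20, with mice on both sides of 0 (mean -0.07 ± 0.16, SD, n = 3). Both Lat probes were close to 0 and above it in all 3 mice. Probe 6288 was at 0.16, 0.08 and 0.02 (mean 0.09 ± 0.07, SD, n = 3), and probe 7120 at 0.08, 0.08 and 0.05 (mean 0.07 ± 0.02, SD, n = 3). Probe 6288 minus probe 7120 was between -0.03 and 0.08 in these mice.

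Dntt was at 0.17, -0.06 and -0.05 in thymus mice 1, 3 and 4, a mean of 0.02 ± 0.13 (SD, n = 3) with a 95% interval of -0.14 to 0.18. Mouse 1 alone lay above 0, and without it the mean was -0.06. Satb1 6649 was at 0.10, 0.07 and 0.08 (mean 0.08 ± 0.02, SD, n = 3), all above 0 and close together. Satb1 6570 was at 0.39, -0.01 and -0.04 (mean 0.11 ± 0.24, SD, n = 3), with mouse 1 alone above 0, and without that mouse the mean was -0.02. Satb1 5354 was at -0.13, -0.12 and 0.08 (mean -0.06 ± 0.12, SD, n = 3). The small thymus means hide larger single arrays of opposite sign. Dntt averaged 0.28 with the mutant in Cy5 and -0.24 with the mutant in Cy3, Satb1 6649 averaged 0.27 and -0.11, and Satb1 5354 averaged 0.13 and -0.24. At all 8 probes the Cy5 mean was above the Cy3 mean in thymus. If the Cy3 arrays are to be turned, Dntt is at 0.26 and Satb1 6649 at 0.19 in thymus, neither passing in limma (adjusted p = 0.456 and 0.467).

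**Figure D3:**
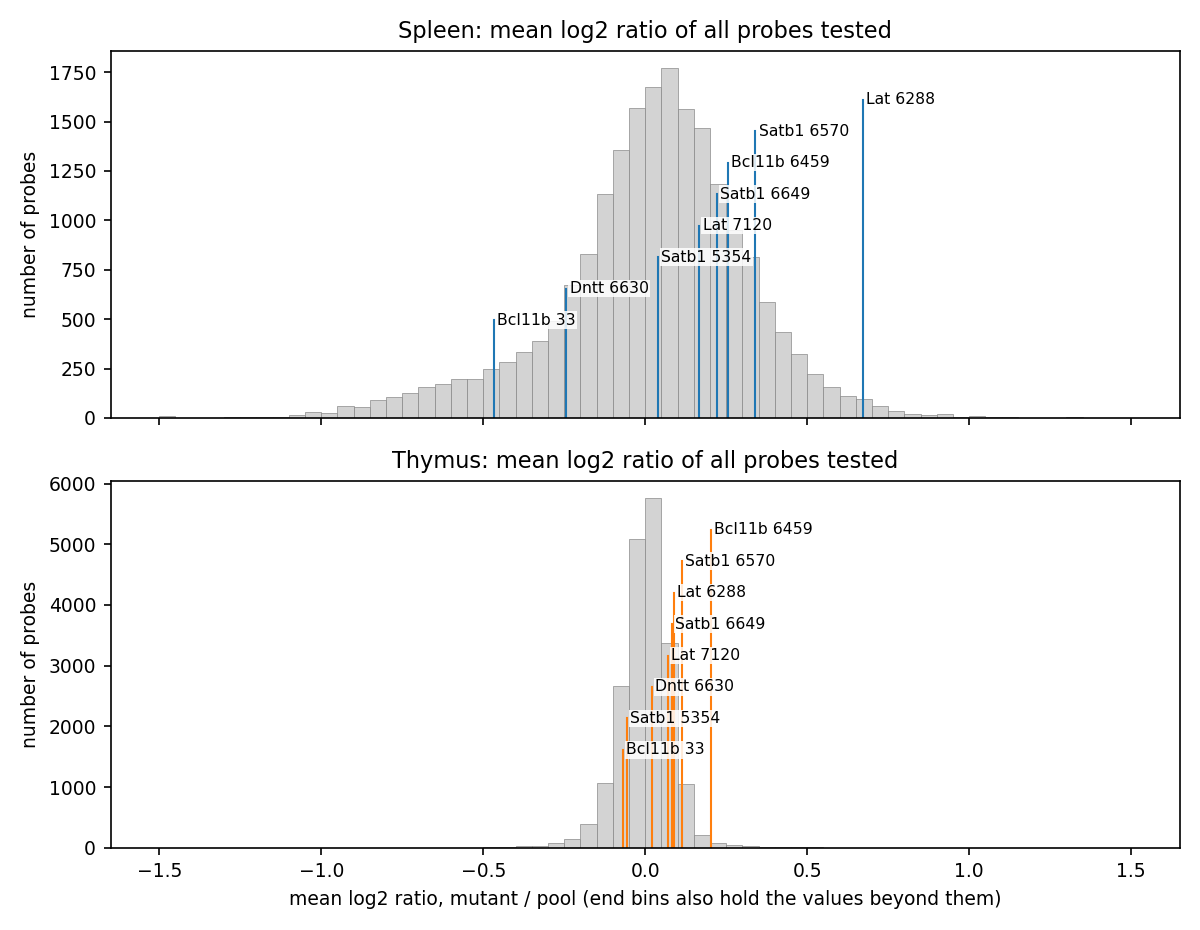
Number of probes (vertical axis) by mean log2 ratio of mutant over pool (horizontal axis, bins of 0.05) among the 20127 probes tested in spleen and the 20130 tested in thymus, with coloured lines at the means of the 8 probes. Bcl11b 33 and Lat 6288 mark the ends of the 8 in spleen at -0.47 and 0.67, and the thymus distribution is narrower, with Bcl11b 6459 at 0.20 in its upper tail.

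The ratios of the tissues were then set against each other in 1 fit, to ask whether a probe's difference from the pool was itself different in spleen and thymus. This fit gives each probe 1 spread for both tissues, although the median SD was larger in spleen; with a spread of its own for each tissue, an alternative chosen after seeing the data, 4001 probes were called in place of 2692. Of the 8 probes, 2 were called, Lat 6288 with the higher and Bcl11b 33 with the lower ratio in spleen. Over all 19948 probes tested for this difference 13.5% were called, 5.64% higher and 7.86% lower in spleen. Lat 6288 had a mean of 0.67 in spleen and 0.09 in thymus, a difference of 0.58 ± 0.08 (SE), with an adjusted p of 0.00627 in limma. In mice 1, 3 and 4, the mice used in both tissues, the differences were 0.58, 0.53 and 0.58. The call held with a spread for each tissue (adjusted p = 0.00113 in limma) and when paired within the mouse (0.56, adjusted p = 0.0474 in limma). It was lost without mouse 3 (0.60, adjusted p = 0.0717 in limma), without mouse 4 (0.58, adjusted p = 0.106 in limma) and with the variance of the pools added (adjusted p = 0.0520 in limma).

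Bcl11b 33 differed by -0.40 ± 0.09 (SE, adjusted p = 0.0265 in limma), from means of -0.47 in spleen and -0.07 in thymus. The differences were -0.54, -0.31 and -0.29 in mice 1, 3 and 4. The call held with a spread for each tissue (adjusted p = 0.0113 in limma). The call was lost when paired within the mouse (-0.38, adjusted p = 0.107 in limma), without any 1 of the 4 mice (adjusted p of 0.0614 to 0.132 in limma), with the running median removed (-0.29, adjusted p = 0.0582 in limma) and with the variance of the pools added (adjusted p = 0.139 in limma). The other 6 probes had differences from -0.26 (Dntt, 95% interval -0.59 to 0.07) to 0.23 (Satb1 6570, 95% interval -0.08 to 0.53) and did not pass in limma, with adjusted p from 0.267 to 0.874. Over all probes the count of 2692 was sensitive to single mice, at 3 without mouse 3 and 0 without mouse 4. It was 601 when paired within the mouse, 187 with the variance of the pools added, 4484 with thymus mouse 2 kept and 0 with the Cy3 arrays turned.

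**Figure D4:**
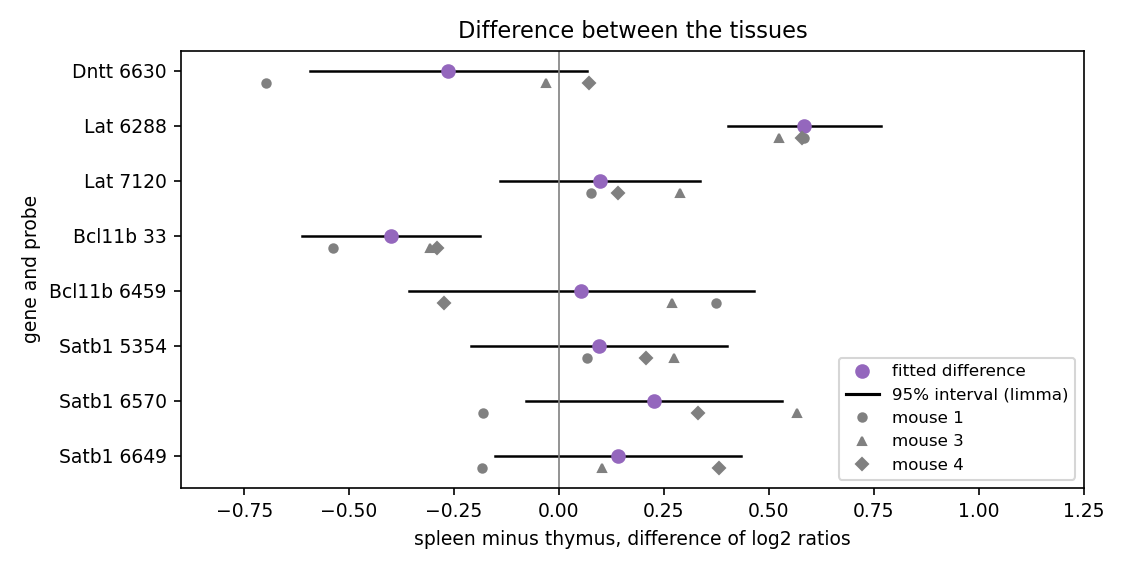
Difference between the spleen and thymus log2 ratios (horizontal axis) for the 8 probes, with the fitted difference (large points), its 95% interval in limma (lines) and the difference within mice 1, 3 and 4 (grey symbols). The intervals of Lat 6288 (0.40 to 0.77) and Bcl11b 33 (-0.61 to -0.19) leave out 0, and those of the other 6 probes hold it.

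Other genes of the pathway were counted by probe in the same spleen fit, against 25.3% called over all probes. Among receptor chains and coreceptors, 2 of 14 tested probes were higher and 2 lower, with a median log2 ratio of 0.04. Cd28, the costimulatory receptor, was lower at -0.82 ± 0.20 (SD, n = 4), while Cd2, an adhesion receptor, was higher at 0.41 ± 0.09 (SD, n = 4). Cd247, the signalling zeta chain, was higher at probe 6879, at 0.45 ± 0.05 (SD, n = 3), and its other 3 probes lay between -0.23 and 0.18 and did not pass in limma. The second Cd2 probe was at -0.15 and did not pass, and with the running median removed the called Cd2 probe missed the threshold (adjusted p = 0.222 in limma). The 4 calls of the list became 2 without mouse 2 and 1 with the variance of the pool added. Under these settings the share called over all spleen probes also fell, to 12.1% and 8.39%.

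Among proximal signalling partners, 6 of 41 probes were higher and 2 lower, or 19.5%, with a median of 0.01. Csk, the kinase that holds Lck inactive, was lower at probe 4752, at -0.94 ± 0.31 (SD, n = 4), and did not pass at its other probe (-0.18). Plcg1, the phospholipase that docks on Lat, was higher at probe 15743, at 0.46, 0.47, 0.47 and 0.46 in mice 1 to 4, and did not pass at its other 2 probes (0.23 and -0.01). Ubash3b, a phosphatase that dampens receptor signals, was lower at probe 15757, at -0.49 ± 0.07 (SD, n = 4), and at 0.08 at its other probe, which did not pass. At none of Csk, Plcg1 and Ubash3b was the call at 1 probe shared by another probe of the gene. The 8 calls of the list became 4 without mouse 2, 5 without mouse 4 and 4 with the variance of the pool added.

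Downstream of the receptor, 4 of 22 probes were higher and 5 lower, or 40.9%, with a median of -0.12. Egr1, an immediate early transcription factor, was lower at -0.67 ± 0.06 (SD, n = 4), as was Ppp3cb, a catalytic chain of calcineurin, at -0.67 ± 0.10 (SD, n = 4). Stim1, the calcium sensor of the endoplasmic reticulum, was higher at both of its probes, at 0.53 and 0.30. Of 13 probes for the joining of cut DNA ends, 4 were higher and 3 lower, or 53.8%, with a median of -0.03. Polm, a polymerase of the same family as Dntt, was higher at 0.86 ± 0.16 (SD, n = 4). The break-response genes Nbn (-0.75 ± 0.15, SD, n = 4) and Atm (-0.86 ± 0.25, SD, n = 4) were lower. The lower probes Atm 20251, Cd28 20273, Egr1 20293 and Nbn 20358 lie close together in probe ID. After subtraction of the running median their spleen log2 ratios shrank to -0.70, -0.59, -0.36 and -0.42. Each still passed in limma (adjusted p of 0.00934 to 0.0129). Whether these are separate decreases was not tested. Of 35 probes for transcriptional regulators of thymocytes, 6 were higher and 0 lower, or 17.1%, with a median of 0.10. Among the higher were Runx1 probe 6705 (0.58 ± 0.09, SD, n = 4), Chd4 (0.52 ± 0.11, SD, n = 4) and Id3 probe 5353 (0.49 ± 0.12, SD, n = 4). The second Id3 probe was at 0.20 and did not pass. The second Runx1 probe was at -0.29 and did not pass (adjusted p = 0.0511 in limma). Without mouse 2 the calls of these 3 lists were 4, 3 and 3, against 9, 7 and 6, and with the variance of the pool added they were 3, 3 and 3. The share over all spleen probes fell as well, from 25.3% to 12.1% without mouse 2 and 8.39% with that variance. Removing the running median left 5 calls among 22 downstream probes, 3 among 13 for end joining and 3 among 35 for regulators. Under that setting 19.7% of all probes were called. Downstream calls were 5 without mouse 1 and 4 without mouse 4, end-joining calls 3 without mouse 3, and regulator calls 3 without mouse 4. Among all spleen probes 24.8% were called without mouse 1, 19.5% without mouse 3 and 12.2% without mouse 4. In thymus none of the probes of the 5 pathway lists passed in limma, with 6 of 125 at an unadjusted p under 0.05.

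Markers of other cells were counted in spleen in the same way. None of 9 B lineage probes passed in limma, 1 having an unadjusted p under 0.05, with Ms4a1 nearest at 0.29 (adjusted p = 0.0744). Of 16 probes for thymic epithelium, 3 were higher and 2 lower, or 31.2%, against 25.3% called over all spleen probes. Among 17 myeloid probes 1 was higher and 5 lower, or 35.3%. The erythroid list had 31.2% called, with 1 of 16 probes higher and 4 lower. The probes with the smallest p were Cldn3 (-0.54), Psmb11 (0.55) and Aire (-0.54) on the thymic epithelial list. On the myeloid list they were Mpo 4927 (-0.58), C1qc (0.63) and Tyrobp (-0.52). On the erythroid list they were Sptb 15496 (-0.64), Hba-a1 15435 (-0.52) and Ank1 4430 (-0.31). Without intensities, whether the thymic epithelial genes were expressed in spleen at all is not known here. No other probe of Sptb, Mpo, Hba-a1 or Ank1 was called in the same direction. Sptb 5295 was called in the opposite direction (0.38, adjusted p = 0.0180 in limma), and Sptb 2412 (-0.12) did not pass. Mpo 4880 (0.31) and Mpo 4138 (-0.15) did not pass, nor did the other 4 Hba-a1 probes (-0.20 to 0.10) or the other 3 Ank1 probes (-0.34, -0.06 and 0.27). Ank1 4430 missed the threshold in limma without mouse 2 (adjusted p = 0.0526) and without mouse 4 (adjusted p = 0.0747). Of the 5 epithelial calls 3 were left without mouse 4, and of the 5 erythroid calls 3 without mouse 2 and 2 without mouse 4, and 2 of each with the pool's variance added. The share over all spleen probes was 12.1% without mouse 2, 12.2% without mouse 4 and 8.39% with that variance. The list medians lay between -0.09 and 0.08. The part of other cell types in the spleen values of Lat, Bcl11b and Satb1 was not tested.

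The probes most like the called members were found by the root mean square difference of the log2 ratio over the 14 arrays used, among probes with 1 gene symbol. Nearest to Lat 6288 were Fn3k (0.0814), Ecel1 (0.0969) and the complement gene C1qc (0.117), against a median of 0.586 over 11897 probes. Nearest to Bcl11b 33 were Brip1 (0.114), Atg14 (0.117) and Gatad2a (0.121), against a median of 0.508. Nearest to Satb1 6570 were Rb1cc1 (0.164), Cep57 (0.170) and Shisa5 (0.185), against a median of 0.572 over 11896 probes. The other probes of Lat, Bcl11b and Satb1 were not candidates under this rule.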

How the data were processed

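The authors deposited log ratios of the channels of 16 arrays, and the log2 unit was read from the size of these deposited values; how the authors corrected and normalized the log2 ratios before they were deposited is not given in the sources. On each array a constant of 15.1 to 16.9 in size stood at 25 to 137 probes; it was taken as a placeholder and set to missing (size above 10). No such value fell on the 8 probes. Its sign was positive with the mutant in Cy5 and negative with the mutant in Cy3, which was read as arrays already turned to mutant over pool.

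Each mouse counted as 1 replicate, by the mean of its 2 arrays. A probe needed 3 mice. Each tissue was fitted alone in limma 3.58.1 (R 4.3.3), because the spread differs between the tissues, and the tissue difference in 1 joint fit; p was adjusted by Benjamini-Hochberg over all probes at 0.05. The code was tested on simulated data. The mouse numbers pair the tissues, since the same animals gave both; deviations of the same mouse from the tissue means correlated at -0.05, -0.01 and -0.09 (mice 1, 3 and 4). The annotation gave 12771 probes a single symbol and 8023 none; all matched RefSeq GRCm38.p6 by gene number. All 8 members are described; of each of 9 lists up to 3 probes past the threshold with the smallest p are named, or the nearest 1, and for the called members the 3 most alike probes. Members and lists were chosen with earlier results of these data known. Alternatives were the joint fit, array medians at 0, Cy3 arrays turned, an added variance term for the pool (4 mice), a running median over 50 probes on either side removed, each mouse left out, thymus mouse 2 kept, pairing by mouse, mice with 1 array used, placeholders kept and, chosen after seeing the data, a spread for each tissue in the difference (the squared standard errors of the limma fits added, Satterthwaite degrees of freedom).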

Additional observations from a re-analysis of the deposited data

Results flagged for a closer look

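The Lat probe 6288 had a log2 ratio 0.58 higher in spleen than in thymus, and the test of the difference between the tissues passed in limma (adjusted p = 0.00627). The Bcl11b probe 33 differed by -0.40 between the same tissues (adjusted p = 0.0265 in limma), a call that was lost when paired within the mouse (adjusted p = 0.107 in limma) and without any 1 mouse (0.0614 to 0.132). The Lat call was lost without mouse 3 (adjusted p = 0.0717 in limma) and without mouse 4 (0.106). The second probes of these genes, Lat 7120 and Bcl11b 6459, had differences of 0.10 and 0.05 and did not pass in limma (adjusted p = 0.574 and 0.874). No spleen mouse stood apart from the other 3 at any of the 8 probes by Dixon's criterion.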

How the results depend on the processing

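For the 8 probes, 280 values under the alternatives were compared with the values reported: 240 kept their direction and side of the threshold, 18 kept the direction and lost the threshold, 2 passed it anew and 20 changed sign. Most of the reported values had no call to lose. Only the 3 spleen and 2 difference calls could be lost, and all 18 losses fell on these. The spleen and difference calls of Lat 6288, lost with the Cy3 arrays turned, stand among the 20 sign changes. Lat 6288 and Bcl11b 33 kept their spleen calls under every alternative run except the turned Cy3 arrays. With the Cy3 arrays turned, 1 probe was called in spleen and 0 for the tissue difference, with 0 of the 8 probes called in either. Spleen values then changed sign at Dntt (0.22), Lat 6288 (-0.071), Bcl11b 6459 (-0.18), Csk (0.0795), Polm (-0.0926), Atm (0.0868), Id3 (-0.0216), Psmb11 (-0.0758), Mpo (0.0249), C1qc (-0.0515) and Sptb (0.0805). Thymus values changed sign at Bcl11b 33 (0.0585) and Satb1 5354 (0.19), and tissue differences at Lat 6288 (-0.11), Lat 7120 (-0.0145), Bcl11b 6459 (-0.26), Satb1 5354 (-0.13) and Satb1 6649 (-0.18). The alternative changes the sign of 1 array in each pair by construction.

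With the pool's variance added, 1689 probes were called in spleen and 187 for the difference, with 0 of the 8 for the difference. With the running median removed, 2021 probes (10.1%) and 1 of the 8 were called for the difference. The sign then changed in spleen at Lat 7120 (-0.0337), in thymus at Dntt (-0.028) and for the difference at Lat 7120 (-0.0602) and Bcl11b 6459 (-0.16). With thymus mouse 2 kept, 4484 probes were called for the difference. With the mouse as a replicate block, 601 probes and 1 of the 8 were called for the difference, Lat 6288; the block changed no other call of the 8 than that of Bcl11b 33.

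Without each mouse in turn, 2351 to 4867 probes were called in spleen, 0 to 1 in thymus and 0 to 2055 for the difference, with 0 to 1 of the 8 for the difference. The spleen value of Satb1 5354 ran from -0.0445 to 0.126, the thymus values of Dntt from -0.0573 to 0.0598 and of Satb1 6570 from -0.0233 to 0.189, and the difference at Bcl11b 6459 from -0.0597 to 0.153. These fits hold fewer mice, and the fit paired within the mouse also leaves out mouse 2. For the other alternatives the cause of a lost call was not tested. Of the spleen calls 52.9% were higher; the share was 57.6% of 7577 calls with both tissues fitted together, 46.7% with array medians set to 0, 43.0% with the running median removed, 34.6% with the pool's variance added, 40.1% without mouse 2 and 39.5% without mouse 4. The files hold no intensities, so what signal over background limits is not known here.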
